A study of Mus musculus with 16 samples.

Results

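Described here are 10 genes of sphingolipid and galactolipid synthesis in sorted mouse oligodendrocytes, chosen by symbol for their place in the pathway out of 53801 genes in the deposited table, with all 10 found and all 10 abundant enough to test. They are Sptlc1, Sptlc2, Sptlc3, Kdsr, Cers2, Degs1, Fa2h, Ugt8a, Gal3st1 and Sgms1. Messenger RNA was sequenced in 16 libraries of cells taken from mouse brain by magnetic sorting, 4 libraries per group, from male mice aged 8 months. App_HFD and App_NCD were homozygous App NL-G-F/NL-G-F knock-in mice on a high-fat diet and on a control diet. WT_HFD and WT_NCD were wild-type C57BL/6J Jcl mice on the same 2 diets. Both diets ran for 6 months from 2 months of age, and fat gave 60.0% of the energy of the high-fat diet (524 kcal per 100 g) against 12.5% of that of the control diet (345.0 kcal per 100 g). The knock-in places a humanised amyloid-β sequence with the Swedish, Beyreuther/Iberian and Arctic mutations in the mouse App gene under its own promoter, so the allele acts in every cell that expresses App. Wild-type mice were bought in and App mice were kept as an inbred line, so genotype and source of the mice cannot be told apart. The labels gave no litter, batch or day. The p-values of single genes set a difference against the spread between libraries of the same group. Those of the ratios of 2 genes use only the 8 libraries of the groups compared.

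Sphingolipids are built on a long-chain base that the serine palmitoyltransferase complex makes from serine and a fatty acyl-CoA. The base is reduced, joined to a second fatty acid by a ceramide synthase and desaturated to ceramide. In oligodendrocytes a large part of ceramide receives galactose to form galactosylceramide, part of which is sulfated to sulfatide, and both are characteristic lipids of myelin. Another part receives phosphocholine to form sphingomyelin.

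Of the 10 genes, Sgms1, Sptlc3 and Ugt8a were lower in App than in wild-type libraries when the diets were averaged, and none was higher. Of all tested genes, 17% were called in that comparison and 6.34% called lower. Scaled to 22 oligodendrocyte markers in place of all genes, none of the 3 was called. With the library App_NCD 553, described below, also left out, Sptlc3 and Sgms1 were called but Ugt8a was not. The RefSeq promoter windows of these 3 genes (build GRCm38.p6, the 250 bases before a transcript start, written 5′ to 3′ on the gene's strand) are printed because the genes passed the same test. Capitals mark matches on either strand to ACAAAG (the core of SOX sites), CTGGCAC (the core of MYRF sites) or GGGCGG (the GC box); SOX10 and MYRF are transcription factors of the oligodendrocyte lineage.
Sgms1, chr19:32388513-32388762, minus strand: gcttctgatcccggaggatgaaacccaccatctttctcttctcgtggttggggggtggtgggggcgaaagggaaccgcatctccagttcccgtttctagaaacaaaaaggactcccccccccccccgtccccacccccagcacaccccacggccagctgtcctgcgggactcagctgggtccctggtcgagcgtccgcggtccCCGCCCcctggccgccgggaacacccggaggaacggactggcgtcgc
Sptlc3, chr2:139493663-139493912, plus strand: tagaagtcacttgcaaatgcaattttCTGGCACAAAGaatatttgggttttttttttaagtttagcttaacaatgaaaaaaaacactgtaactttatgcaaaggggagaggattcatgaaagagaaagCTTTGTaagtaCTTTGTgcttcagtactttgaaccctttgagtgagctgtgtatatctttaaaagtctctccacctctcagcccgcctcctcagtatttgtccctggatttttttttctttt
Ugt8a, chr3:125938653-125938902, minus strand: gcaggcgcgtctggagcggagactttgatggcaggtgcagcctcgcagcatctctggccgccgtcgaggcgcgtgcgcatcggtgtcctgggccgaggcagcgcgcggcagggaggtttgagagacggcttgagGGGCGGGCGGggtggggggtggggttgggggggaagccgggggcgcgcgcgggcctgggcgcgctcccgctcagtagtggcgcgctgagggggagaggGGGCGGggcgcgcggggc

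The 3 windows differed in their bases and matches. The Ugt8a window was 76.8% G or C and held 3 GC boxes, the first 2 of which overlap. The Sgms1 window, the most upstream of the 4 listed for this gene, was 67.2% G or C and held 1 GC box. The other windows of Sgms1 ran from 45.6% to 76% G or C, 1 of them holding a SOX core and another 2 GC boxes, so what Sgms1 shares with the other genes depends on the window. The Sptlc3 window was 35.6% G or C and held 3 SOX cores and 1 MYRF core, with the MYRF core overlapping a SOX core. The median window of the table was 52.4% G or C. Of all 32851 windows, 16.5% held ACAAAG, 4.19% held CTGGCAC and 32.7% held GGGCGG. Windows were listed for 9 of the 10 genes, 15 windows in all, of which 3 held ACAAAG, 1 held CTGGCAC and 7 held GGGCGG. A match is a run of letters and says nothing of whether a factor binds there.

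Totals ran from 64538297 to 84114322 counts in App_HFD and from 69772745 to 101709022 in App_NCD, against 90220118 to 101737328 in WT_HFD and 98588561 to 217925484 in WT_NCD. The library App_NCD 553 stood apart: 39.4% of its counts came from mitochondrially encoded genes, against 1.22% to 4.62% in the other 15, and 18928 genes had a count, against 27151 to 30617. Its level of the 10 genes ran from 0.116 times the median of the other libraries (Gal3st1) to 1.11 times (Fa2h), so the genotype and diet values of the 10 genes are given with and without it. A second library, WT_NCD 11, had the lowest mitochondrial share, 1.22%, where the remaining 14 held at least 2.98%. All 22 oligodendrocyte markers had a count in every library. So did all 11 microglial and all 6 choroid plexus markers, so this does not measure the purity of the sort. Markers of other cells were present too: 11 microglial markers summed to 6883 to 15151 CPM in App and to 2623 to 5821 CPM in wild-type libraries, and 6 choroid plexus markers to 7193 to 21328 CPM in App and 18004 to 36702 CPM in wild-type libraries. WT_HFD 2 and WT_HFD 16 stood apart in 5 erythroid markers, which summed to 9049 and 4719 CPM there and to 147 to 1195 CPM in the other 14 libraries.

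Levels between genes were compared per kilobase of exon (RPKM), while each gene's own values are in CPM, its count relative to the library total after TMM scaling. In the 8 wild-type libraries the highest level was that of Ugt8a, the galactosyltransferase that makes galactosylceramide, at 167 ± 17.7 RPKM (SD, n = 8). Fa2h, the hydroxylase that adds the 2-hydroxyl group of myelin galactolipids, followed at 138 ± 17.6 RPKM. Cers2, the ceramide synthase for very long acyl chains, stood at 118 ± 26.7 RPKM and Degs1, the desaturase that completes ceramide, at 102 ± 15.0 RPKM. Neighbours among these 4 genes overlapped in their ranges over libraries. Well below them stood Gal3st1, the sulfotransferase that makes sulfatide, at 25.1 ± 3.02 RPKM. Sptlc1 and Sptlc2, the paired core subunits of serine palmitoyltransferase, had 16.5 ± 1.74 and 11.4 ± 1.08 RPKM, and the range of Sptlc1 overlapped that of Gal3st1 but not that of Sptlc2. Sgms1, the Golgi sphingomyelin synthase, had 9.71 ± 1.01 RPKM and overlapped the range of Sptlc2. Kdsr, the reductase of the newly made long-chain base, had 6.49 ± 0.171 RPKM and did not overlap the range of Sgms1. Sptlc3, an alternative catalytic subunit, came last at 1.55 ± 0.237 RPKM. It was still counted 117 to 1210 times per library.

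**Figure D1:**
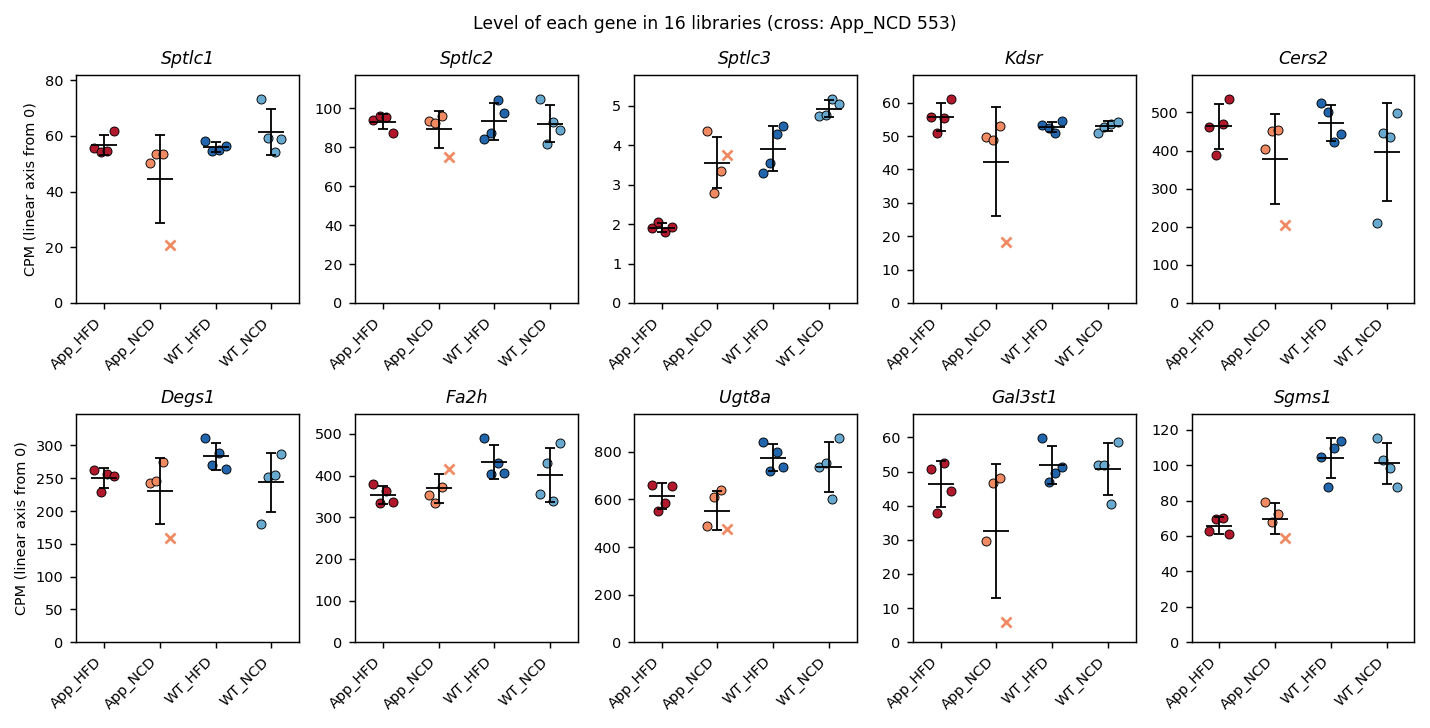
Level of the 10 genes in each library, in CPM on linear axes from 0, by group; bars give the mean and SD of 4 libraries and the cross marks App_NCD 553. For Sgms1 all 8 App libraries lie below all 8 wild-type libraries, while Cers2 has 1 low library in App_NCD and 1 in WT_NCD.

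The genotype comparison asks how the App knock-in bears on oligodendrocyte gene expression, on each diet and averaged over both. Averaged, 3 of the 10 genes were lower in App by edgeR's quasi-likelihood test (adjusted p under 0.05), against a background of 17% of all 21768 tested genes called and 6.34% called lower. Without App_NCD 553 there were 4, Fa2h being the addition, against 33.6% called and 17.4% called lower of 22322 genes. On the high-fat diet 2 were lower, Sptlc3 and Sgms1, where 7.14% of all genes were called and 2.05% called lower. The same 2 were lower on that diet without App_NCD 553, where 19.3% were called and 8.54% called lower. On the control diet 1 was lower, Sgms1, where 8.39% were called and 1.88% called lower. Without App_NCD 553, Sgms1 and Sptlc3 were lower on the control diet, where 17.5% were called and 7.22% called lower. No member was called higher in any of these fits, where 10.6% of all genes were called higher averaged over diets, 5.09% on the high-fat diet and 6.5% on the control diet, and 16.2%, 10.8% and 10.2% without App_NCD 553. On the high-fat diet 0 of the 5 erythroid markers were higher and 5 lower in App, the most abundant, Hba-a1, with -3.30 ± 0.734 (edgeR adjusted p = 0.0116). Without WT_HFD 2 and WT_HFD 16 the same members were called: Sptlc3 (-1.06, edgeR adjusted p = 0.0148) and Sgms1 (-0.76, edgeR adjusted p = 0.0165) on the high-fat diet, Sgms1 on the control diet, and those 2 and Ugt8a averaged over diets. The median log2 fold change of the 10 genes, averaged over diets, was -0.22, beside -0.01 over all tested genes, and without App_NCD 553 it was -0.19 beside -0.04.

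Sgms1 (ENSMUSG00000040451, mm10 chromosome 19, 32122727 to 32389714, minus strand) transfers phosphocholine to ceramide in the Golgi. It had 62.5, 69.6, 70.2 and 60.9 CPM in App_HFD and 79.4, 67.9, 72.7 and 58.9 CPM in App_NCD, against 109.5, 113.8, 104.3 and 87.9 CPM in WT_HFD and 98.5, 87.6, 115.1 and 102.7 CPM in WT_NCD. The 2 genotypes did not overlap: the highest App library had 79.4 CPM and the lowest wild-type library 87.6 CPM. Such a separation with App below was found for 340 of 21768 tested genes, or 1.56%.

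Averaged over diets, Sgms1 fell by 0.60 ± 0.092 on the log2 scale (SE, 8 App libraries against 8 wild-type, edgeR adjusted p = 0.000303), to 0.661 times the wild-type level. Without App_NCD 553 the log2 fold change was -0.59 ± 0.077 (edgeR adjusted p = 3.7e-05). It was -0.66 ± 0.130 on the high-fat diet (edgeR adjusted p = 0.00544) and -0.53 ± 0.130 on the control diet (edgeR adjusted p = 0.0189). Without App_NCD 553 these were -0.68 (edgeR adjusted p = 0.000326) and -0.49 (edgeR adjusted p = 0.00804). Leaving out WT_NCD 11 alone ended the control-diet call, with a log2 fold change of -0.50 (edgeR adjusted p = 0.0539). It also ended with library totals alone (-0.79, edgeR adjusted p = 0.0727), with only the 8 libraries of the pair (-0.53, edgeR adjusted p = 0.182), and with oligodendrocyte marker scaling, where the value was -0.08 (edgeR adjusted p = 0.803), and -0.21 without App_NCD 553 (edgeR adjusted p = 0.494). The high-fat-diet call ended with library totals alone (-0.75, edgeR adjusted p = 0.0867) and with oligodendrocyte marker scaling, with and without App_NCD 553 (-0.47 in both). The test of a difference between the diets gave an interaction of -0.12 ± 0.184 (edgeR adjusted p = 0.865), and -0.19 ± 0.152 without App_NCD 553.

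Scaled to the 22 oligodendrocyte markers in place of all genes, the averaged log2 fold change of Sgms1 was -0.28 and not called (edgeR adjusted p = 0.167). With that scaling and without App_NCD 553 it was -0.34 and called (edgeR adjusted p = 0.0480). Under it the median of all genes stood at 0.30, and at 0.20 without App_NCD 553. Mean log2 CPM of the 7 endothelial markers ran from 3.45 to 4.40 in App and from 4.21 to 5.22 in wild-type libraries, with 0 higher and 3 lower of 7, and that of the 7 pericyte and smooth muscle markers from 3.57 to 4.21 and from 3.87 to 5.04, with 0 higher and 5 lower of 7. Averaged over diets, 10.6% of all genes were called higher and 6.34% lower. No marker of the endothelial or the pericyte and smooth muscle list was at 0 in all libraries. The part of these markers in the result was not tested, and in bulk samples fewer cells of a type cannot be told apart from less RNA per cell.

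Sptlc3 (ENSMUSG00000039092, chromosome 2, 139493913 to 139637674, plus strand) encodes a subunit that lets serine palmitoyltransferase use other acyl chain lengths. It had 1.91, 2.04, 1.79 and 1.91 CPM in App_HFD and 4.35, 2.80, 3.34 and 3.75 CPM in App_NCD, against 4.29, 4.49, 3.31 and 3.55 CPM in WT_HFD and 5.17, 5.05, 4.74 and 4.78 CPM in WT_NCD. App_HFD lay below each of the other 3 groups without overlap, and App_NCD lay below WT_NCD without overlap. How many of all tested genes separate so between groups of 4 libraries was not counted, for this gene or those that follow. The gene is scarce, so these values rest on 117 or more counts per library. App_NCD 553 lay within the range of its group.

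The averaged log2 fold change of Sptlc3 was -0.75 ± 0.123 (edgeR adjusted p = 0.000505), and -0.79 ± 0.114 without App_NCD 553 (edgeR adjusted p = 9.4e-05). On the high-fat diet it was -1.03 ± 0.175 (edgeR adjusted p = 0.00183), to 0.489 times the WT_HFD level, and -1.05 without App_NCD 553 (edgeR adjusted p = 0.000248). On the control diet it was -0.47 ± 0.173 (edgeR adjusted p = 0.102), and -0.52 ± 0.166 without App_NCD 553 (edgeR adjusted p = 0.0421). The larger value on the high-fat diet was not called as a difference between diets, with an interaction of -0.56 ± 0.245 (edgeR adjusted p = 0.851), and -0.53 ± 0.225 without App_NCD 553, where no gene was called. Scaled to the oligodendrocyte markers, the averaged value was -0.41 (edgeR adjusted p = 0.145), and the call on the high-fat diet was lost as well, with -0.85 (edgeR adjusted p = 0.106). With that scaling and without App_NCD 553, Sptlc3 was called in both, with -0.54 averaged (edgeR adjusted p = 0.0245) and -0.85 on the high-fat diet (edgeR adjusted p = 0.0208).

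Choroid plexus markers, like Sptlc3, were lower in App than in wild-type libraries. Their mean log2 CPM ran from 7.85 to 8.76 in App_HFD and from 8.58 to 9.22 in App_NCD, against 8.93 to 9.99 in WT_HFD and 9.43 to 9.76 in WT_NCD. Averaged over diets, 0 of the 6 were higher and 5 lower in App, beside 10.6% higher and 6.34% lower of all genes. Ttr, the transthyretin made by choroid plexus epithelium and the most abundant of the 6, had a log2 fold change of -0.94 ± 0.208 (edgeR adjusted p = 0.00497), and -0.98 ± 0.211 without App_NCD 553 (edgeR adjusted p = 0.00219). The group means of Sptlc3 were 1.91 CPM in App_HFD, 3.56 in App_NCD, 3.91 in WT_HFD and 4.93 in WT_NCD. Those of the markers, as mean log2 CPM, were 8.33, 8.85, 9.37 and 9.58, so both rose in that order. The marker sums follow in the library order of the Sptlc3 values above. They were 11042, 11813, 14935 and 7193 CPM in App_HFD and 9323, 21328, 19094 and 18169.5 CPM in App_NCD. In WT_HFD they were 36702, 22013, 23827 and 18004 CPM, and in WT_NCD 30653, 28990, 24842 and 25577 CPM. Some endothelial and pericyte markers, given above for Sgms1, were lower in App too. None of the 6 choroid plexus markers was at 0, and their part in the values of Sptlc3 was not tested.

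Ugt8a (ENSMUSG00000032854, chromosome 3, 125865271 to 125938619, minus strand) makes galactosylceramide. It had 659, 552, 583 and 659 CPM in App_HFD and 490, 612, 638 and 474 CPM in App_NCD, against 799, 739, 843 and 721 CPM in WT_HFD and 602, 857, 737 and 753 CPM in WT_NCD. On the high-fat diet the genotypes did not overlap, and on the control diet WT_NCD 4, at 602 CPM, lay within the App_NCD range. Averaged over diets, Ugt8a fell by 0.38 ± 0.102 on the log2 scale (edgeR adjusted p = 0.0179), to 0.771 times the wild-type level, and -0.37 ± 0.090 without App_NCD 553 (edgeR adjusted p = 0.00517). Neither diet alone passed, with -0.34 ± 0.144 on the high-fat diet (edgeR adjusted p = 0.211) and -0.41 ± 0.144 on the control diet (edgeR adjusted p = 0.0866), nor did they without App_NCD 553, with -0.36 (edgeR adjusted p = 0.0501) and -0.38 (edgeR adjusted p = 0.0603).

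The Ugt8a call depended on the scaling. Scaled to the oligodendrocyte markers, the averaged value was -0.06 (edgeR adjusted p = 0.740), and -0.13 without App_NCD 553 (edgeR adjusted p = 0.208). Mean log2 CPM of those markers ran from 8.78 to 9.79 in App and from 9.52 to 10.02 in wild-type libraries, and from 9.34 in App without App_NCD 553. Their summed CPM ran from 34500 to 55676 in App and from 39680 to 55820 in wild-type libraries, so the difference depended on the measure. App_NCD 553, lowest by the log2 mean, had the highest sum in App. The marker scaling used the log2 mean. Of the 22 markers, 0 were higher and 1 was lower in App, beside 10.6% higher and 6.34% lower of all genes averaged over diets. Without App_NCD 553 the counts were 0 and 8, beside 16.2% and 17.4% of all genes. The part of the oligodendrocyte share in the Ugt8a value was not tested beyond that scaling.

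Fa2h (ENSMUSG00000033579, chromosome 8, 111345135 to 111393824, minus strand) supplies the 2-hydroxy fatty acids of myelin lipids. It had 379, 334, 362 and 336 CPM in App_HFD and 353, 335, 373 and 415 CPM in App_NCD, against 431, 405, 489 and 403 CPM in WT_HFD and 340, 479, 355 and 430.5 CPM in WT_NCD. App_HFD lay below WT_HFD without overlap, and App_NCD and WT_NCD overlapped widely. Fa2h had an averaged log2 fold change of -0.21 ± 0.095 (edgeR adjusted p = 0.155), and -0.26 ± 0.083 without App_NCD 553 (edgeR adjusted p = 0.0237). App_NCD 553 had the highest Fa2h level of the 8 App libraries. Under oligodendrocyte marker scaling the averaged value was 0.15 with 16 libraries, where its direction turned, and -0.01 without App_NCD 553, where it was not called (edgeR adjusted p = 0.930).

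Gal3st1 (ENSMUSG00000049721, chromosome 11, 3983636 to 3999326, plus strand) sulfates galactosylceramide. It had 50.7, 38.0, 52.6 and 44.3 CPM in App_HFD and 29.6, 46.6, 48.0 and 5.76 CPM in App_NCD, against 49.6, 51.2, 59.7 and 46.9 CPM in WT_HFD and 40.5, 58.7, 52.0 and 51.8 CPM in WT_NCD. The groups overlapped on both diets, though 3 of the 8 App libraries lay below all 8 wild-type libraries. The lowest of these, 5.76 CPM in App_NCD 553, rests on 203 counts. For Gal3st1 the averaged log2 fold change was -0.40 ± 0.285 (edgeR adjusted p = 0.367), and -0.25 ± 0.113 without App_NCD 553 (edgeR adjusted p = 0.0977).

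**Figure D2:**
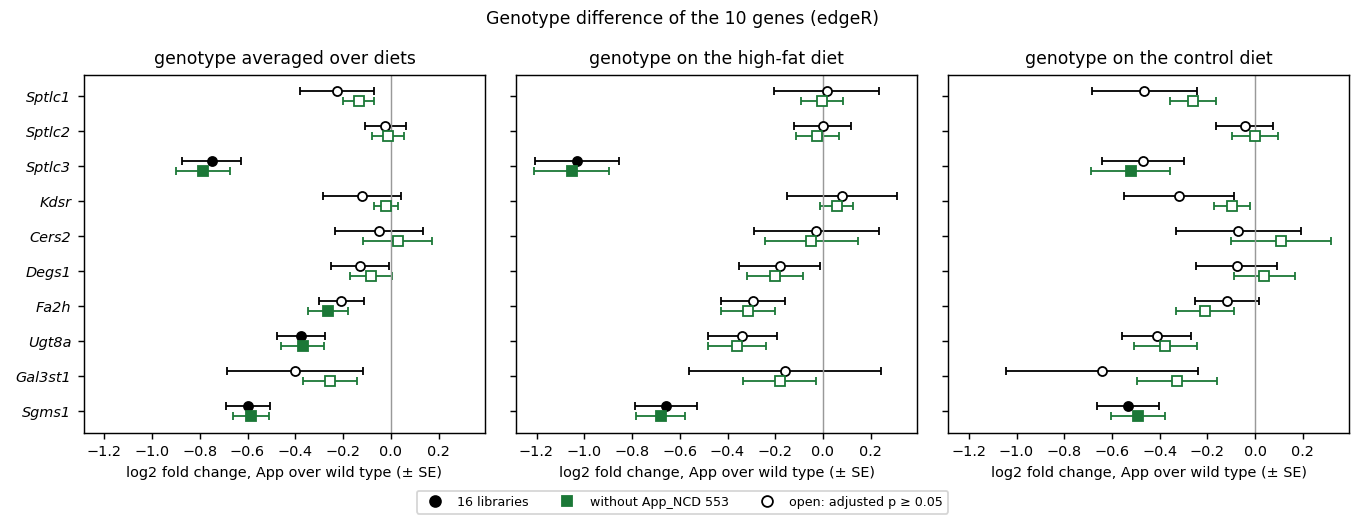
Log2 fold change of the 10 genes, App over wild type, with its SE, averaged over diets and on each diet, with 16 libraries and without App_NCD 553; filled symbols have an edgeR adjusted p under 0.05. Sgms1 and Sptlc3 lie farthest from 0 averaged and on the high-fat diet, while Gal3st1 does so on the control diet with 16 libraries, and the value of Gal3st1 moves from -0.40 to -0.25 when App_NCD 553 is left out.

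The core steps that lead to ceramide were not called. Sptlc1 (ENSMUSG00000021468, chromosome 13, 53332748 to 53377397, minus strand) ran from 54.2 to 61.8 CPM in App_HFD and from 20.8 to 53.3 CPM in App_NCD, against 54.4 to 58.1 CPM in WT_HFD and 54.2 to 73.1 CPM in WT_NCD. All 4 App_NCD libraries lay below all wild-type libraries, with 50.2 CPM the lowest apart from App_NCD 553. The averaged log2 fold change was -0.22 ± 0.155 (edgeR adjusted p = 0.353), and -0.13 ± 0.065 without App_NCD 553 (edgeR adjusted p = 0.131). Sptlc2 (ENSMUSG00000021036, chromosome 12, 87305058 to 87388355, minus strand) ran from 87.4 to 95.9 CPM in App_HFD and from 75.3 to 96.0 CPM in App_NCD, against 84.2 to 104.4 CPM in WT_HFD and 82.0 to 104.8 CPM in WT_NCD. Its averaged log2 fold change was -0.02, with a 95% interval of -0.21 to 0.16 (edgeR adjusted p = 0.889), and -0.01 without App_NCD 553. The interval leaves room for small differences in either direction.

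Kdsr (ENSMUSG00000009905, chromosome 1, 106720459 to 106759727, minus strand) was the steadiest of the 10 in wild-type libraries. It ran from 50.9 to 61.0 CPM in App_HFD and from 18.1 to 53.0 CPM in App_NCD, against 50.9 to 54.6 CPM in WT_HFD and 50.8 to 54.2 CPM in WT_NCD. The averaged log2 fold change was -0.12 ± 0.163 (edgeR adjusted p = 0.663), and -0.02 ± 0.051 without App_NCD 553, with a 95% interval of -0.13 to 0.09.

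Cers2 (ENSMUSG00000015714, chromosome 3, 95314791 to 95323599, plus strand) had 462, 389, 469 and 535 CPM in App_HFD and 405, 451, 453 and 203 CPM in App_NCD, against 424, 443, 523 and 501 CPM in WT_HFD and 436, 498, 209 and 445 CPM in WT_NCD. It had 1 low library in each control-diet group, App_NCD 553 at 203 CPM and WT_NCD 11 at 209 CPM, and the other 14 lay between 389 and 535 CPM. The averaged log2 fold change was -0.05 ± 0.185 (edgeR adjusted p = 0.890), and 0.03 ± 0.144 without App_NCD 553, so its direction rested on that library. Cers2 exons share 144 bases (3.92% of its exon length) with the antisense gene 6330562C20Rik and 75 bases with Setdb1 on the other strand. The sources used here do not say how the counting used strand, so reads of these stretches may be counted for either gene.

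Degs1 (ENSMUSG00000038633, chromosome 1, 182275772 to 182282804, minus strand) had its lowest values in the same pair of libraries, 158 CPM in App_NCD 553 and 180 CPM in WT_NCD 11. The other 14 libraries ran from 229 CPM to 311 CPM. Degs1 had an averaged log2 fold change of -0.13 ± 0.120 (edgeR adjusted p = 0.502), and -0.08 ± 0.087 without App_NCD 553. The part of the unusual mitochondrial shares of those 2 libraries in these values was not tested.

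The diet comparison asks how the high-fat diet bears on the same genes within each genotype. By edgeR's quasi-likelihood test no gene at all was called for the diet in App (0%), for the diet in wild type (0%) or for the interaction (0%), with 16 libraries or without App_NCD 553, and so 0 of the 10 genes. At an unadjusted p under 0.05 there were 2586, 419 and 639 genes with 16 libraries. DESeq2 called 102, 7 and 3 genes in these contrasts and limma-voom 161, 6 and 0, and of the 10 genes both called Sptlc3 for the diet in App and none otherwise.

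Sptlc3 was the gene with the largest diet difference of the 10. Within App its log2 fold change was -0.90 ± 0.176 (edgeR adjusted p = 0.330), and -0.87 ± 0.166 without App_NCD 553 (edgeR adjusted p = 0.144), with all 4 App_HFD libraries below all 4 App_NCD libraries. Averaged over genotypes it was -0.62 ± 0.123 (edgeR adjusted p = 0.146), in a comparison that called 0.0459% of all genes and 0 of the 10. Without App_NCD 553 it was -0.60 ± 0.112 and passed (edgeR adjusted p = 0.0387), in a comparison that called 0.255% of all genes, and no other member passed. DESeq2 and limma-voom each called Sptlc3 in the averaged diet contrast with 16 libraries. For the remaining 9 genes the averaged diet differences lay between -0.02 and 0.27, and between -0.06 and 0.17 without App_NCD 553.

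Ratios of pairs of genes within a library do not depend on the scaling. The ratio of Ugt8a to Sgms1 counts sets 1 gene of the galactosylceramide branch against 1 gene of the sphingomyelin branch. It leaves out Sgms2, another sphingomyelin synthase. The log2 value of the ratio averaged 3.22 ± 0.231 in App_HFD and 2.98 ± 0.251 in App_NCD, against 2.90 ± 0.156 in WT_HFD and 2.86 ± 0.305 in WT_NCD (SD, n = 4 each). The genotypes overlapped on both diets, and the difference was 0.31 on the high-fat diet (exact two-sided permutation p = 0.114) and 0.12 on the control diet (exact two-sided permutation p = 0.571). The difference between diets was 0.23 in App (exact two-sided permutation p = 0.257) and 0.04 in wild type (exact two-sided permutation p = 0.83). Without App_NCD 553 the genotype difference on the control diet was 0.11 and the diet difference in App 0.24.

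The ratio of Gal3st1 to Ugt8a sets the sulfation step against the galactosylation step before it. Its log2 value averaged -3.73 ± 0.194 in App_HFD and -4.46 ± 1.27 in App_NCD, against -3.91 ± 0.086 in WT_HFD and -3.86 ± 0.028 in WT_NCD. The low mean and wide SD of App_NCD came from App_NCD 553 at -6.36, and the other 3 libraries ran from -4.05 to -3.71. The genotype difference was 0.17 on the high-fat diet (exact two-sided permutation p = 0.171) and -0.60 on the control diet (exact two-sided permutation p = 0.543), and on the control diet it was 0.03 without App_NCD 553. The diet difference was 0.73 in App (exact two-sided permutation p = 0.229) and -0.04 in wild type (exact two-sided permutation p = 0.429), and without App_NCD 553 the diet difference in App was 0.10 (exact two-sided permutation p = 0.514). Over the 8 tests of ratios the adjusted p ran from 0.514 to 0.83, and 4 libraries against 4 cannot go below 0.0286 before adjustment.

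**Figure D3:**
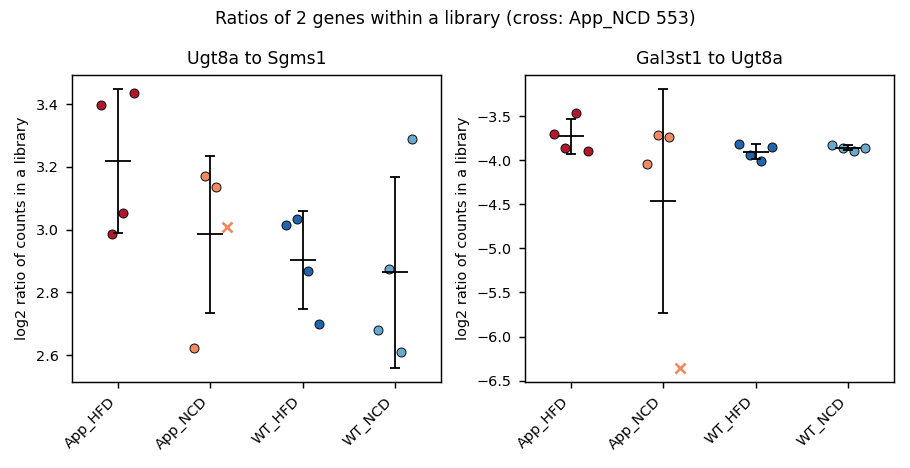
Log2 ratio of the counts of 2 genes within each library, by group, with the mean and SD of 4 libraries; the cross marks App_NCD 553. The Gal3st1 to Ugt8a ratio of the 8 wild-type libraries stays within -4.01 to -3.82, and App_NCD 553 lies at -6.36.

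How alike the patterns of the genes were over libraries depended in most cases on App_NCD 553. Likeness was measured as the root mean square difference of log2 CPM after each gene's own mean was removed, over the 14816 genes whose mean level reached 1 CPM, where a small value means a like pattern. The gene most like Gal3st1 was Cnp, an abundant myelin enzyme, at 0.09 with 16 libraries and 0.09 without App_NCD 553, where the median gene lay at 0.83 and 0.34. Mapk8ip1 (0.11) and Abhd14a (0.11) followed with 16 libraries, and B3gnt9 (0.10) and S100a16 (0.10) without App_NCD 553. Nearest to Ugt8a were Tmem88b (0.09), Rnf141 (0.10) and Pafah1b1 (0.10), with a median of 0.46, and without App_NCD 553 they were P3h4 (0.07), Gnai1 (0.08) and Osbpl1a (0.08), with a median of 0.32. Nearest to Fa2h were Edil3 (0.10), Add3 (0.11) and Kat2b (0.11), with a median of 0.44, and without App_NCD 553 Mbnl2 (0.08), Desi1 (0.09) and Hdgfl3 (0.09), with a median of 0.30. Nearest to Cers2 were Gm20457 (0.14), Zfp275 (0.14) and Snapin (0.16), with a median of 0.55, and without App_NCD 553 Cldn34c1 (0.06), Srr (0.11) and Zfp729a (0.11), with a median of 0.41.

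Among the 10 genes, Fa2h and Ugt8a lay 0.19 apart with 16 libraries and 0.13 without App_NCD 553, and Fa2h ranked 381 and 105 among the genes nearest to Ugt8a. Gal3st1 and Ugt8a lay 0.63 apart with 16 libraries and 0.13 without App_NCD 553, and Ugt8a ranked 3968 and 50 among the genes nearest to Gal3st1. Cers2 and Degs1 lay 0.20 and 0.18 apart, and Degs1 ranked 28 and 86 among the genes nearest to Cers2. Libraries share depth and the share of oligodendrocytes, so these are descriptions.

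The other genes of the pathway, listed by step, numbered 35, of which 34 were tested. Averaged over diets, 3 were higher and 4 lower in App by edgeR, and 27 were not called, beside 10.6% higher and 6.34% lower of all genes. Without App_NCD 553 the counts were 5, 12 and 17, beside 16.2% higher and 17.4% lower of all genes. Their median log2 fold change was -0.08, and -0.05 without App_NCD 553. None of the 4 tested small subunits and ORMDL regulators of serine palmitoyltransferase was called (Sptssa, Ormdl1, Ormdl2 and Ormdl3).

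The higher genes were B4galnt1, Cers6 and B4galt5. B4galnt1, the synthase of the complex gangliosides GM2 and GD2, ran from 20.5 to 26.2 CPM in App_HFD and from 20.1 to 27.8 CPM in App_NCD, against 7.64 to 13.7 CPM in WT_HFD and 6.15 to 11.1 CPM in WT_NCD. Its log2 fold change was 1.37 ± 0.149 (edgeR adjusted p = 1.2e-05), and 1.33 ± 0.143 without App_NCD 553. Cers6, a ceramide synthase for shorter acyl chains, ran from 17.7 to 21.8 CPM in App_HFD and from 19.99 to 30.3 CPM in App_NCD, against 7.47 to 11.3 CPM in WT_HFD and 8.35 to 14.8 CPM in WT_NCD. Its log2 fold change was 1.07 ± 0.146 (edgeR adjusted p = 0.000103), and 1.08 ± 0.138 without App_NCD 553. B4galt5, a lactosylceramide synthase, had 0.67 ± 0.130 (edgeR adjusted p = 0.002), and 0.63 ± 0.121 without App_NCD 553. These 3 genes were higher in App on each diet as well, and their groups did not overlap.

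The lower genes were Cers4, Sgms2, Ugp2 and Hacd3. Sgms2, the plasma membrane sphingomyelin synthase, ran from 31.0 to 51.2 CPM in App_HFD and from 52.8 to 124.7 CPM in App_NCD, against 61.9 to 127.4 CPM in WT_HFD and 78.2 to 95.3 CPM in WT_NCD. Its averaged log2 fold change was -0.64 ± 0.189 (edgeR adjusted p = 0.0299), and -1.12 ± 0.270 on the high-fat diet (edgeR adjusted p = 0.0189), where it was -1.14 without App_NCD 553. Ugp2, which makes UDP-glucose, had -0.37 ± 0.098 (edgeR adjusted p = 0.0155). Cers4, another ceramide synthase, had -0.52 ± 0.169, and Hacd3, a dehydratase of acyl chain elongation, had -0.41 ± 0.117. Without App_NCD 553 these 4 remained lower, with -0.84 for Sgms2, -0.34 for Ugp2, -0.73 for Cers4 and -0.35 for Hacd3. On the control diet 1 gene was lower, Cers1, with -0.87 ± 0.249 (edgeR adjusted p = 0.0413), and -0.68 without App_NCD 553. Scaled to the oligodendrocyte markers, 8 of the 34 genes were higher and 0 lower, beside 4319 of all 21768 genes called in either direction. The 3 higher genes named kept their calls, and the 4 lower ones had values between -0.25 and -0.07 that were not called. With that scaling and without App_NCD 553, 9 were higher and 3 lower, beside 6389 of 22322 genes called. Among the 3 lower were Cers4 (-0.49) and Sgms2 (-0.60). With library totals alone 2 were higher and 4 lower, beside 3379 of 21768 genes called. The medians of all genes under these 3 settings were 0.30, 0.20 and -0.20 in that order. With library totals B4galt5, at 0.47, was not called (edgeR adjusted p = 0.0879). The 4 lower ones were then Cers4, Sgms2, Col4a3bp and B4galt6, while Ugp2 (edgeR adjusted p = 0.0587) and Hacd3 (edgeR adjusted p = 0.0796) were not called. The 7 genes called in the averaged contrast kept their direction under each of these scalings.

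Of 6 genes that break these lipids down in lysosomes or cleave the long-chain base, 3 were higher in App and 0 lower when averaged over diets, beside 10.6% higher and 6.34% lower of all genes. Galc, the lysosomal galactosylceramidase, ran from 105 to 119 CPM in App_HFD and from 105 to 114 CPM in App_NCD, against 79.8 to 82.8 CPM in WT_HFD and 76.3 to 82.6 CPM in WT_NCD, a log2 fold change of 0.46 ± 0.066 (edgeR adjusted p = 0.000148). Asah1, the acid ceramidase, had 0.68 ± 0.093 (edgeR adjusted p = 0.000103), and Sgpl1, the lyase of sphingosine phosphate, had 0.79 ± 0.195 (edgeR adjusted p = 0.00998). Without App_NCD 553 the 3 were again higher, at 0.44, 0.65 and 0.91 in the same order. Smpd1, the acid sphingomyelinase, was lower at -0.45 ± 0.073 (edgeR adjusted p = 0.000244). In that fit 16.2% of all genes were called higher and 17.4% lower. Arsa, which desulfates sulfatide, and Psap, the precursor of the saposin cofactors, were not called in either fit. Scaled to the oligodendrocyte markers, 3 of 6 were again higher and 0 lower, beside 4319 of all 21768 genes called in either direction. With that scaling and without App_NCD 553, 4 were higher, Arsa (0.33, edgeR adjusted p = 0.00796) among them, beside 6389 of 22322 genes called. Smpd1 was then not called (-0.21, edgeR adjusted p = 0.188). With library totals alone 1 was higher, Asah1 (0.49), beside 3379 of 21768 genes called, while Galc (0.27) and Sgpl1 (0.66) were not called.

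Microglial markers were higher in App as well, 10 of 11 higher and 0 lower. Of all genes, 10.6% were called higher and 6.34% lower averaged over diets. The microglial markers summed to 6883 CPM in App_NCD 553 and to 10881.5 to 14159 CPM in the rest of App_NCD, so the width of that range came from App_NCD 553. Over all App_NCD libraries, App_NCD 553 among them, Galc ran from 105 to 114 CPM, Asah1 from 235 to 242 CPM and Sgpl1 from 58.7 to 201 CPM. The 7 plaque-associated microglial markers summed to 2304 to 4238 CPM in App and to 81.6 to 145 CPM in wild-type libraries, with 7 of 7 higher. Cst7, the most abundant of the 7, averaged 820 CPM in App and 1.06 CPM in wild-type libraries. None of these markers was at 0 in all libraries. Their part in the values of the breakdown genes and of the higher synthesis genes was not tested.

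**Figure D4:**
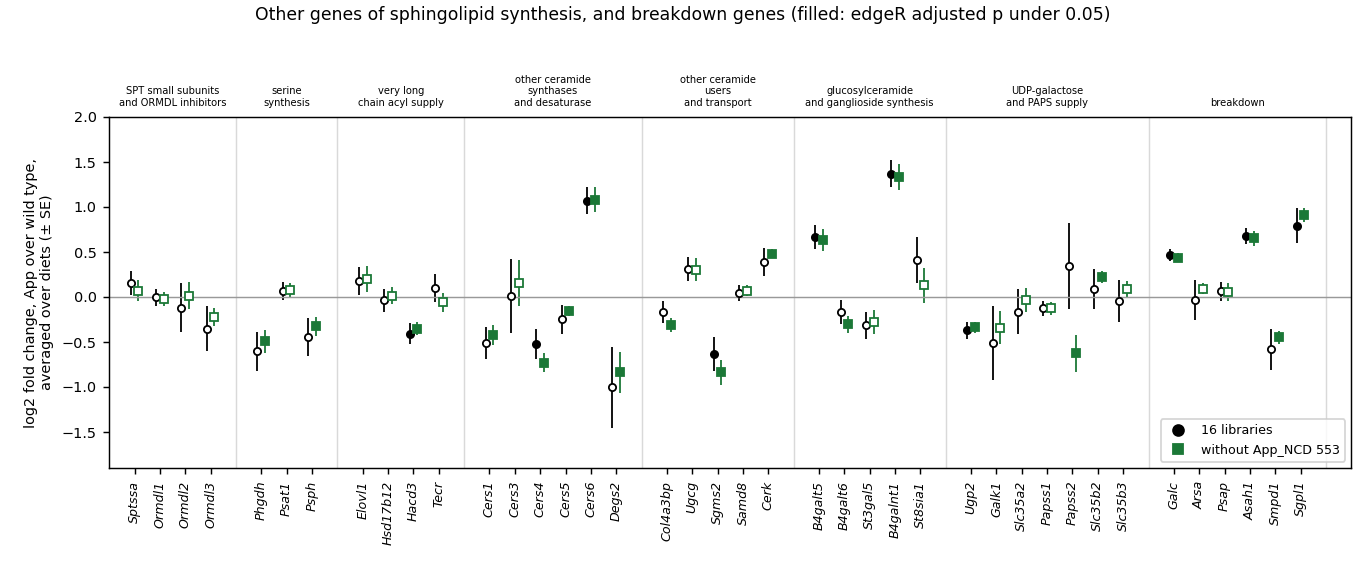
Log2 fold change, App over wild type averaged over diets, with its SE, of the other tested genes of the pathway by step and of 6 breakdown genes, with 16 libraries (circles) and without App_NCD 553 (squares); filled symbols have an edgeR adjusted p under 0.05. B4galnt1 and Cers6 stand highest among the synthesis genes and Sgpl1 among the breakdown genes.

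**Figure D5:**
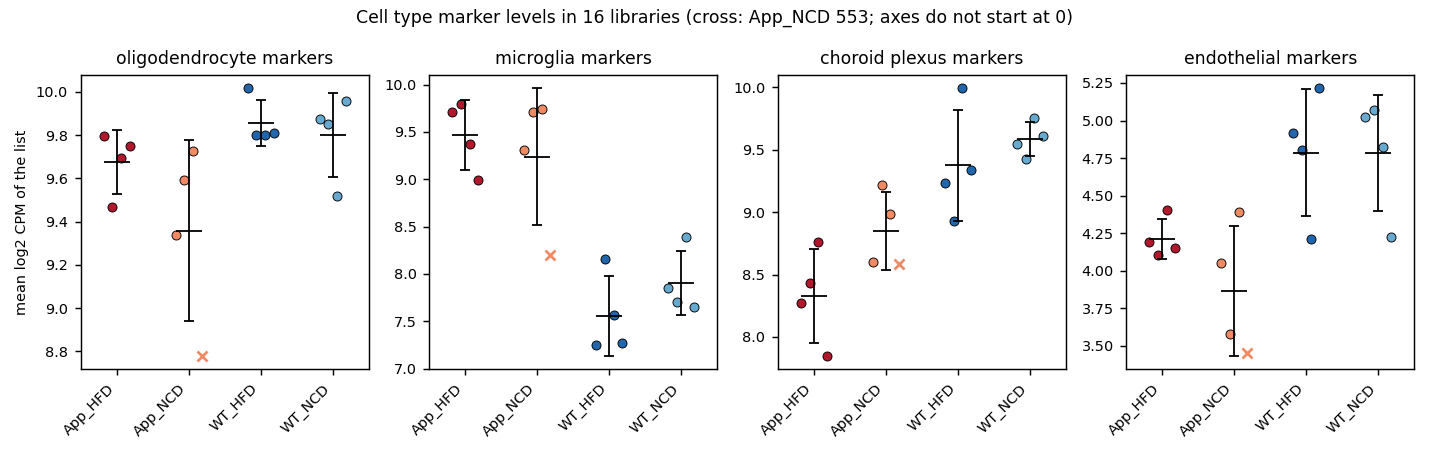
Mean log2 CPM of 4 marker lists in each library, by group, with the mean and SD of 4 libraries; the cross marks App_NCD 553, and axes do not start at 0. Microglial markers are higher in the App than in the wild-type libraries, except that App_NCD 553 (8.20) lies below WT_NCD 4 (8.39), and the endothelial values of the 2 genotypes overlap.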

How the data were processed

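The deposited table holds an estimated count per gene for 16 libraries of sorted oligodendrocytes, 4 per group. Per the submitters' processing notes, fastp 0.23.2, HISAT2 2.2.1, StringTie 2.2.1 and bedtools 2.25.0 were used with mm10; the sources used here name neither the annotation nor how strand was used. The deposited values were all whole, so rounding changed none. StringTie derives a count from coverage and can divide reads between overlapping genes. The table also names mitochondrial genes, which stayed in the totals.

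From these counts, genes were filtered with filterByExpr (minimum count 10), scaled by TMM and tested with edgeR 4.0.16 (R 4.3.3, limma 3.58.1), by the robust quasi-likelihood test on 4 groups, for 7 contrasts, with Benjamini-Hochberg adjustment over 21768 genes (22322 without App_NCD 553) at 0.05. SEs come from the fold change and its F value, and 95% intervals use 12 residual degrees of freedom, or 11 without App_NCD 553. RPKM was computed over the exon union of GENCODE M21, which also gave coordinates. Log2 CPM used a prior count of 0.5. The script was tested on simulated data with known differences. At a 2-fold difference, recovery was 19% for genotype on the control diet and 20% for the diet in App. At a 4-fold difference, recovery was 64% and 72% in the same order. A gene that was not called may therefore still differ between groups.

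The 10 genes and all lists were chosen with earlier results of these data known. Named were all 10, the called genes of the pathway and breakdown lists (up to 6 per contrast by adjusted p), the most abundant marker of each list a result touches, and the 3 genes most like Cers2, Fa2h, Ugt8a and Gal3st1. A few genes that this rule would name are not reported here. DESeq2 1.42.0 and limma-voom (with quality weights) served as alternatives, beside other scalings and filters, fits of a pair's 8 libraries, and fits that left out a library. Scaling to the 22 oligodendrocyte markers without App_NCD 553, leaving out App_NCD 553 and WT_NCD 11 together or WT_HFD 2 and WT_HFD 16 together, likeness without App_NCD 553 and the scalings of the pathway and breakdown lists were chosen after seeing the data. No paired analysis was possible because groups share no replicate number.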

Additional observations from a re-analysis of the deposited data

Results flagged for a closer look

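In 5 cases App_NCD 553 lay far from the other 3 libraries of its group. It had 20.8 CPM of Sptlc1, against 50.2 to 53.3 CPM in the others, and 75.3 CPM of Sptlc2, against 92.6 to 96.0 CPM. It had 18.1 CPM of Kdsr, against 48.7 to 53.0 CPM, and 203 CPM of Cers2, against 405 to 453 CPM. Its ratio of Gal3st1 to Ugt8a counts was 0.0122, against 0.0605 to 0.0762. In 1 case WT_NCD 11 lay far from its group, with 209 CPM of Cers2 against 436 to 498 CPM. In each case the gap to the nearest library was at least 0.846 of the group's whole range. Of 48 groups of 4 values examined, 6 were so marked, and chance marks about 1 in 20. The groups share libraries and genes, so these counts do not test for an excess over chance.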

How the results depend on the processing

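Members called with 16 libraries never changed sign in the contrast that called them, and for each changed value below the cause was not tested. The count of called members on the control diet, 1, was 0 with library totals alone, with oligodendrocyte marker scaling (with or without App_NCD 553) and with only the 8 libraries of the pair, 3 with DESeq2 and 4 with limma-voom, and 0 (without WT_NCD 11) to 2 when 1 library was left out. On the high-fat diet, 2 became 1 with library totals, 0 with oligodendrocyte marker scaling, 1 with that scaling and no App_NCD 553, 4 with limma-voom and 4 with only the pair. Averaged, 3 became 0 with oligodendrocyte marker scaling, 2 with that scaling and no App_NCD 553, and 4 with library totals and with limma-voom. DESeq2 and limma-voom each called 1 for the diet in App and 1 for the averaged diet, where leaving out 1 library gave 0 to 1. Oligodendrocyte marker scaling moved the median of all genes to 0.30 averaged (0.20 without App_NCD 553) and library totals to -0.20. With it averaged values turned to 0.050 (Sptlc1), 0.29 (Sptlc2), 0.14 (Kdsr), 0.22 (Cers2), 0.16 (Degs1) and 0.15 (Fa2h), and without App_NCD 553 also to 0.11 (Sptlc1), 0.23 (Sptlc2), 0.22 (Kdsr), 0.26 (Cers2) and 0.15 (Degs1). On the control diet it gave 0.024 (Sptlc3), 0.40 (Fa2h, 0.083 without App_NCD 553) and 0.044 (Ugt8a), and on the high-fat diet 0.018 (Gal3st1, and 0.018 without App_NCD 553). Without App_NCD 553 and WT_NCD 11 the averaged values were 0.056 (Sptlc2) and 0.0046 (Kdsr), and limma-voom gave 0.069 (Sptlc2). With 1 library left out, averaged Cers2 ran from -0.18 to 0.029. The Ugt8a to Sgms1 ratio ran from 0.24 to 0.39 (genotype, high-fat diet) and from -0.044 to 0.18 (diet in wild type), and the Gal3st1 to Ugt8a ratio from -0.85 to 0.030 (genotype, control diet). Genes called averaged over diets numbered 3692, against 7502 without App_NCD 553 and 10161 with limma-voom. Genes called on the control diet numbered 1826, against 505 with only the pair, 841 with library totals and 7233 with limma-voom, and on the high-fat diet 1554, against 4307 without App_NCD 553 and 6680 with limma-voom. Sptlc3 (at least 117 counts) and Gal3st1 in App_NCD 553 (203 counts) are the values that depth limits most.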
